A study of Canis lupus familiaris with 13 samples.

Results

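Dog CL, an intact female Shih Tzu kept as a companion animal, carried 2 carcinomas in the left mammary chain, and the 2 tumors are compared here within the one host. The cranial tumor was diagnosed as a ductal carcinoma and the caudal tumor as a complex carcinoma, both of low grade. Both were injected with IMAX, a cationic polymer carrying paclitaxel and a cyclic dinucleotide, 2 times each. Biopsies were taken before treatment (day 0), 1 week after both treatments had been given, and finally 1 month after them. The last specimens came from the mastectomy that removed both tumors, so the way of sampling changed together with the last time point. The effect of this change on the libraries was not tested. The libraries were chosen by their labels, which name the tumor and the time point, and they are 6 of the 13 libraries of a study of 4 tumors in 3 dogs. The labels give 1 library for each tumor and time, and the 3 time points therefore served as the repeated measurements of a difference between the tumors. All 6 libraries shared host, agent and schedule, no untreated tumor was followed in this animal, and the volume each tumor received was not matched to the libraries here. The values hold for these 2 tumors of 1 animal, and the p-values measure only the spread between these libraries.

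A mammary duct has an inner luminal layer, which makes milk and carries the receptors for estrogen, progesterone, and prolactin, and an outer basal or myoepithelial layer, which contracts. Luminal cells are known by keratins such as KRT8, KRT18, and KRT19, and basal cells by KRT5, KRT14, and TP63 together with contractile proteins. A ductal carcinoma is a malignant tumor of duct epithelium. In a complex carcinoma of the dog, malignant epithelium lies beside a proliferation of myoepithelial cells, often in a mucoid matrix. The cyclic dinucleotide of IMAX activates STING, a sensor protein that turns on type I interferon genes, and paclitaxel arrests dividing cells by stabilizing microtubules.

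Strand-specific RNA-seq reads were counted on gene symbols, with 11622444 to 20815295 counts per library, and 18418 genes had enough counts to be tested. Levels are given as CPM, counts scaled for library size and for composition by the trimmed mean of M values, in the order day 0, 1 week, and 1 month. A tumor difference is the log2 fold change of cranial over caudal in a fit with time point as block, so that a positive value means a higher level in the cranial tumor. It passed the test at a Benjamini-Hochberg adjusted p under 0.05 in edgeR. In a biopsy of mixed tissue, fewer cells of a type and less RNA per cell cannot be told apart.

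The libraries differed in make-up before any gene is considered. Ribosomal protein genes took 12.2% to 13.3% of the counts in the caudal day 0, caudal 1 month, and cranial 1 month libraries, and 4.98% to 7.12% in the other 3. The former 3 libraries also had fewer genes with at least 10 counts, 16322 to 16538 against 18656 to 21615. The tumors were therefore alike in this respect at 1 week and at 1 month, and unlike at day 0.

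The 2 tumors differed in 890 genes, 4.83% of those tested. The cranial tumor was higher in 460 genes (2.5%) and the caudal tumor in 430 (2.33%). Higher in the cranial tumor were luminal keratins and claudins, the progesterone and prolactin receptors, milk protein genes, and the chains of type I collagen. Higher in the caudal tumor were proteoglycan and bone matrix genes, the neuropeptide genes CCK and PENK, N-cadherin, and TP63. Without the day 0 pair 844 genes passed, of which 655 were among the 890. Each of the 890 kept its direction in that fit, which reuses the remaining libraries. Without the 1 week pair 2702 passed, without the 1 month pair 462, without time point as a block 295, and 26 with all 13 libraries in one fit. Of 59 passing genes named by the rule, 50 did not pass in that last fit (adjusted p = 0.0531 to 0.452), while KRT18, LTF, HAPLN1, CNMD, CSPG5, BGLAP, TIMP3, LPL, and TKTL1 did. The median over all tested genes was 0.045. The difference between the tumors at one time point correlated over the 18418 genes with that at another, with Pearson r = 0.454 for day 0 and 1 week, 0.643 for day 0 and 1 month, and 0.59 for 1 week and 1 month. These pairs of differences have no library in common, although the genes of a sample are not independent and the libraries of a tumor come from the same mass.

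**Figure D1:**
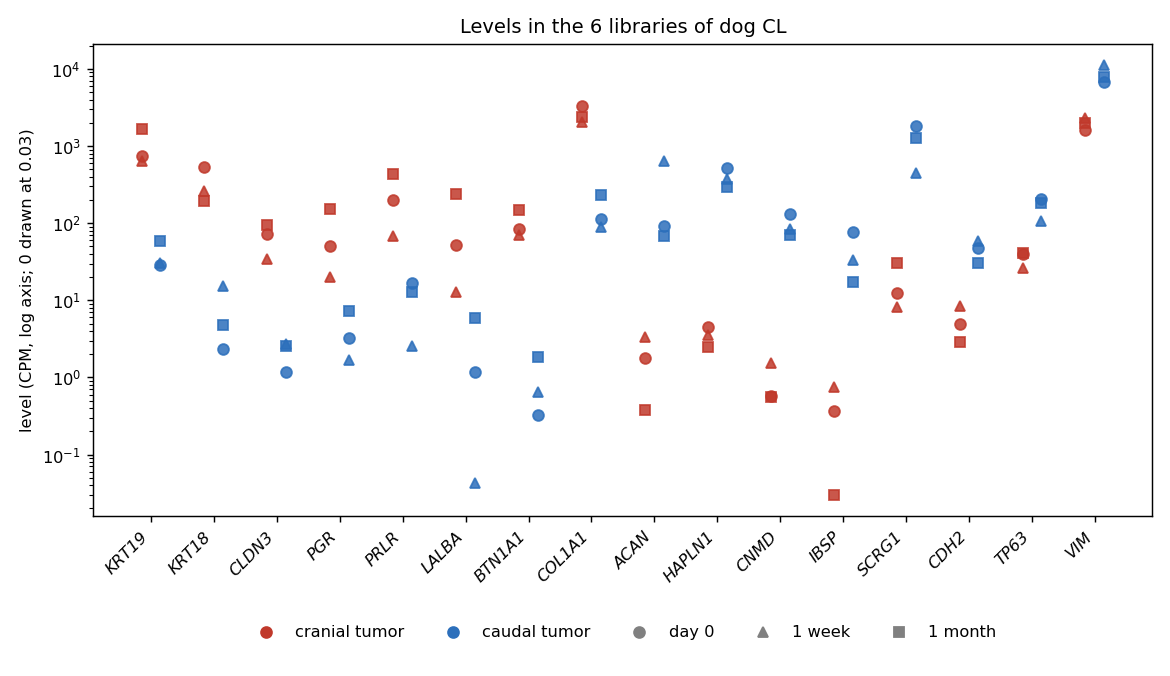
Level of 16 genes in each of the 6 libraries, in CPM on a log axis, with the cranial tumor in red, the caudal tumor in blue, and the time point given by the marker (circle for day 0, triangle for 1 week, square for 1 month; a level of 0 is drawn at 0.03). The 3 libraries of one tumor lie on the same side of the 3 of the other for each gene drawn, KRT19 for example being at 636 CPM or more in the cranial and at 58.9 CPM or less in the caudal tumor.

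Of 22 tested members of the luminal list, 13 passed the test, all higher in the cranial tumor, beside 2.5% of all genes. In 16 of the 22 the libraries of the tumors did not overlap, with all cranial values the higher ones, as held for 10.8% of all genes (11.7% in the caudal direction). The median member differed by 3.21, 2.59 and 2.90 on the log2 scale at day 0, 1 week, and 1 month. Summed over the list, the cranial tumor held 6636, 3795 and 5874 CPM and the caudal tumor 926, 972 and 973 CPM. The epithelial markers of a mammary tumor were thus present in both masses.

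KRT19, a keratin of simple epithelium (chromosome 9, 21117527 to 21121798 of CanFam4), was at 739, 636 and 1666 CPM in the cranial tumor and at 28.5, 30.9 and 58.9 CPM in the caudal tumor. The groups did not overlap, and the log2 fold change was 4.63 ± 0.48 (approximate SE from the fit, adjusted p = 0.00743). KRT18, the partner of KRT8 in keratin filaments (chromosome 27, 44457950 to 44461835), was at 539, 259 and 192 CPM against 2.31, 15.3 and 4.77 CPM. Each cranial library was above each caudal library, with a log2 fold change of 5.67 ± 0.81 (adjusted p = 0.0142). KRT8 itself was at 2109, 941 and 656 CPM in the cranial tumor and 31.7, 475 and 46.7 CPM in the caudal tumor. The cranial values were the higher ones in all 3 pairs, but the caudal 1 week value stood apart from the other caudal values and the gene did not pass (log2 fold change 3.66 ± 1.04, adjusted p = 0.0843). KRT8 passed without the 1 week pair (4.93, adjusted p = 0.000131) but not without the day 0 or the 1 month pair. KRT19 did not pass with all 13 libraries (adjusted p = 0.108).

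Cell contact genes of luminal cells followed the keratins. CLDN3, a claudin of tight junctions, was at 71.7, 33.9 and 94.0 CPM in the cranial tumor and 1.19, 2.72 and 2.53 CPM in the caudal tumor, a log2 fold change of 4.90 ± 0.58 (adjusted p = 0.0105). EPCAM, an epithelial adhesion molecule, was at 393, 176 and 335 CPM against 54.5, 13.8 and 69.9 CPM (2.92 ± 0.44, adjusted p = 0.0173). Neither gene overlapped between the tumors. ESRP1, which directs epithelial splicing, was at 99.3, 53.4 and 104 CPM against 12.7, 6.57 and 12.7 CPM (3.01 ± 0.35, adjusted p = 0.00995). CDH1, which encodes E-cadherin, was at 1057, 612 and 469 CPM and 194, 154 and 191 CPM, without overlap, and its difference of 1.91 ± 0.45 did not pass (adjusted p = 0.0528). It passed without the day 0 pair (adjusted p = 0.0368) but not without the 1 week or the 1 month pair. Without the block for time point EPCAM did not pass (adjusted p = 0.0922), nor CLDN3 with all 13 libraries (0.0848). Among 25 tested genes of epithelial junctions and the mesenchymal switch, 5 were higher in the cranial tumor and 2, CDH2 and TWIST1, in the caudal tumor, beside 2.5% and 2.33% of all genes.

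The mesenchymal side of that list pointed to the caudal tumor for the members that passed. CDH2, which encodes N-cadherin, was at 4.96, 8.42 and 2.92 CPM in the cranial tumor and 47.3, 59.6 and 30.3 CPM in the caudal tumor, a log2 fold change of -3.14 ± 0.43 (adjusted p = 0.0131). TWIST1, a transcription factor of mesenchymal cells, was at 7.03, 10.3 and 12 CPM against 47.1, 51.1 and 42.0 CPM (-2.29 ± 0.42, adjusted p = 0.0264). In both, all caudal libraries were above all cranial libraries, and TWIST1 no longer passed without the 1 month pair (adjusted p = 0.113). VIM, the intermediate filament of mesenchymal and myoepithelial cells, was at 1621, 2301 and 2006 CPM in the cranial tumor and 6676, 11101 and 7825 CPM in the caudal tumor. Its difference of -2.09 ± 0.53 did not pass (adjusted p = 0.0635). It passed without the day 0 pair (adjusted p = 0.0304) but not without the 1 week or the 1 month pair.

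Some receptor genes differed between the tumors and others did not. PGR, the progesterone receptor, was at 51.1, 20.1 and 155 CPM in the cranial tumor and 3.24, 1.69 and 7.37 CPM in the caudal tumor, a log2 fold change of 3.99 ± 0.41 (adjusted p = 0.00743). PRLR, the prolactin receptor, was at 198, 68.7 and 438 CPM against 16.6, 2.55 and 12.8 CPM (4.47 ± 0.48, adjusted p = 0.00768). Both receptors were lowest at 1 week in each tumor, yet the tumors did not overlap. ERBB3, a receptor for neuregulins, was at 229, 110.1 and 71.0 CPM in the cranial tumor and at 12.7, 11.2 and 10.4 CPM in the caudal tumor (3.41 ± 0.42, adjusted p = 0.0116). AREG, a ligand of the EGF receptor and an estrogen target, was at 166, 10.5 and 31.2 CPM against 3.37, 1.73 and 3.50 CPM (3.75 ± 0.67, adjusted p = 0.0253). Neither gene overlapped, and without the block PGR, PRLR, and AREG did not pass (adjusted p = 0.0646, 0.0609, and 0.0726), nor PGR and PRLR with all 13 libraries (0.149 and 0.167).

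ESR1, the estrogen receptor itself, did not separate the tumors. Its level was 31.2, 24.2 and 96.4 CPM in the cranial tumor and 153, 25.2 and 81.3 CPM in the caudal tumor. The highest value was the caudal day 0 library and the 1 week values were nearly alike, so the groups overlapped (log2 fold change -0.67 ± 0.55, adjusted p = 0.464). ERBB2, a growth factor receptor amplified in some breast cancers, was at 115, 62.1 and 10.9 CPM against 3.77, 38.7 and 3.35 CPM and did not pass (2.31 ± 0.82, adjusted p = 0.14). The cranial values were the higher of each pair, and the caudal 1 week value exceeded the cranial 1 month value. In all, 3 of 25 tested hormone and growth factor receptors passed, PGR, PRLR, and ERBB3, each higher in the cranial tumor, beside 2.5% of all genes. Of 17 tested estrogen-responsive genes, 2 passed in the same direction, PGR and AREG.

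Genes of milk and glandular secretion were higher in the cranial tumor where they passed, 5 of 16 tested beside 2.5% of all genes, and none passed in the caudal direction. BTN1A1, a membrane protein of milk fat globules, was at 84.2, 70.6 and 150.3 CPM in the cranial tumor and at 0.33, 0.648 and 1.86 CPM in the caudal tumor, a log2 fold change of 6.92 ± 0.51 (adjusted p = 0.00734). LALBA, which encodes the milk protein alpha-lactalbumin (chromosome 27, 40749445 to 40751461), was at 52.0, 13 and 240.4 CPM against 1.19, 0.043 and 5.88 CPM (5.83 ± 0.56, adjusted p = 0.00743). Both tumors had their highest LALBA level at 1 month and their lowest at 1 week, and the cranial value was above the caudal value throughout. LTF, the iron-binding lactoferrin of milk and neutrophil granules, was at 4300.2, 4567 and 799 CPM against 112, 337 and 57.0 CPM (4.27 ± 0.60, adjusted p = 0.0137). AQP5, a water channel of glands, was at 101, 40.8 and 53.3 CPM against 8.65, 8.51 and 7.60 CPM (2.87 ± 0.42, adjusted p = 0.0154). Both kept the cranial libraries above the caudal ones. Without the block LALBA and LTF did not pass (adjusted p = 0.137 and 0.0801), nor LALBA with all 13 libraries (0.121). The median member of the list differed by 1.147, 2.21 and 1.46.

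The casein genes, named here after their values were seen, showed a different course. CSN3 was at 0.413, 42.8 and 9.32 CPM in the cranial tumor and 0.661, 0.389 and 3.65 CPM in the caudal tumor, and CSN1S1 at 0.103, 13.9 and 30.8 CPM and 4.89, 0.173 and 45.7 CPM. The cranial day 0 value of each was near 0 and both later cranial values were above it, so the groups overlapped. Neither passed the test of a constant difference (adjusted p = 0.366 and 0.938).

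Basal and myoepithelial genes did not move as a group. Of 24 tested members, 1 passed in the cranial direction and 2 in the caudal direction, beside 2.5% and 2.33% of all genes, and the median member differed by 1.81, -1.10 and -0.17 at the 3 time points, changing sign after day 0. TP63, the transcription factor of basal cells, was at 39.7, 26.1 and 40.9 CPM in the cranial tumor and 208, 106 and 182 CPM in the caudal tumor, a log2 fold change of -2.19 ± 0.35 (adjusted p = 0.019). SYNM, which encodes the intermediate filament protein synemin, was at 31.0, 14.4 and 15.3 CPM against 148, 121 and 112 CPM (-2.73 ± 0.37, adjusted p = 0.0128). In both, the caudal tumor was higher in all 3 pairs without overlap. KRT14, a basal keratin, went the other way, at 197, 428 and 290.3 CPM in the cranial tumor and 10.9, 165 and 35.2 CPM in the caudal tumor (2.87 ± 0.61, adjusted p = 0.04). Without the 1 month pair none of these 3 genes passed, with adjusted p = 0.118 for TP63, 0.0538 for SYNM, and 0.0849 for KRT14, and TP63 and KRT14 did not pass without the block (0.0512 and 0.286). KRT5 was at 693, 1036 and 575 CPM and 231, 2056 and 215 CPM, overlapping, and did not pass (0.72 ± 0.64, adjusted p = 0.5). CNN1, which encodes the contractile regulator calponin, was at 58.9, 20.8 and 19.2 CPM and 7.13, 128 and 17.0 CPM and had no constant difference that could be detected (0.18 ± 1.06, adjusted p = 0.924).

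Cartilage and bone matrix genes were higher in the caudal tumor where they passed, with 1 exception. Of 16 tested members 6 passed in the caudal direction, beside 2.33% of all genes, and 1, MATN3, in the cranial direction. ACAN, the large proteoglycan aggrecan of cartilage (chromosome 3, 52485855 to 52522279), was at 1.81, 3.33 and 0.377 CPM in the cranial tumor and at 93.0, 637 and 67.7 CPM in the caudal tumor. The log2 fold change was -6.85 ± 0.60 (adjusted p = 0.00734), with the caudal 1 week library far above the other 2 caudal libraries. HAPLN1, the link protein that ties aggrecan to hyaluronan, was at 4.44, 3.50 and 2.45 CPM against 525, 369 and 299 CPM (-6.84 ± 0.47, adjusted p = 0.00734). CNMD, the cartilage glycoprotein chondromodulin, was at 0.568, 1.54 and 0.565 CPM against 132, 83.2 and 70.5 CPM (-6.78 ± 0.58, adjusted p = 0.00734). Neither of these overlapped, and both were highest in the caudal day 0 library. Genes of mineralized matrix were on the same side. IBSP, a sialoprotein of mineralizing matrix, was at 0.362, 0.75 and 0 CPM in the cranial tumor and 77.0, 32.8 and 17.3 CPM in the caudal tumor (-6.89 ± 0.83, adjusted p = 0.0109). BGLAP, which encodes osteocalcin, was at 7.34, 4.38 and 6.40 CPM against 95, 115 and 77.0 CPM (-4.0 ± 0.42, adjusted p = 0.00743). With all 13 libraries ACAN and IBSP did not pass (adjusted p = 0.122 and 0.231).

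The list as a whole was mixed, with a median difference of -0.36, -0.36 and -0.47. COL2A1, the main collagen of cartilage, was at 42.5, 1.62 and 1.98 CPM in the cranial tumor and 11.63, 26.4 and 9.68 CPM in the caudal tumor. Its highest value was the cranial day 0 library and the groups overlapped, so that no constant difference was found (-1.68 ± 1.24, adjusted p = 0.42). Further matrix genes outside the list were higher in the caudal tumor. CSPG5, a chondroitin sulfate proteoglycan known from neurons, was at 8.27, 7.0 and 4.24 CPM against 398, 705 and 204 CPM (-5.95 ± 0.51, adjusted p = 0.00734). SCRG1, a protein of chondrocyte precursors, was at 12.6, 8.29 and 30.8 CPM against 1823, 449.8 and 1276 CPM (-6.09 ± 0.62, adjusted p = 0.00743). TIMP3, a matrix-bound inhibitor of metalloproteases, was at 38, 35.4 and 24.2 CPM against 249, 850.4 and 229.8 CPM (-3.51 ± 0.52, adjusted p = 0.0155). None of these 3 overlapped between tumors.

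The chains of type I collagen were higher in the cranial tumor. COL1A1 was at 3279, 2030.4 and 2371 CPM in the cranial tumor and 114, 88.6 and 229.7 CPM in the caudal tumor, a log2 fold change of 4.25 ± 0.57 (adjusted p = 0.0129). COL1A2, its partner chain, was at 4348, 2158 and 1266 CPM against 277, 353 and 307 CPM (2.87 ± 0.58, adjusted p = 0.0355). These were the 2 members of 20 tested fibroblast and matrix genes that passed, beside 2.5% of all genes, and neither overlapped, although COL1A2 did not pass without the block (adjusted p = 0.0606) nor COL1A1 with all 13 libraries (0.173). COL3A1 was at 4849.6, 2002 and 1169 CPM and 392.4, 581 and 383 CPM and did not pass (2.32 ± 0.60, adjusted p = 0.0675). Over the list the median difference was 2.35, 1.03 and 0.43, largest at day 0.

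Of 8 tested nerve and Schwann cell markers, 3 were higher in the caudal tumor, beside 2.33% of all genes, and none in the cranial tumor. The genes with the largest caudal differences included 2 neuropeptide genes. CCK, the peptide cholecystokinin, was at 0.258, 0.208 and 0 CPM in the cranial tumor and 54.8, 37.3 and 19.9 CPM in the caudal tumor, the largest caudal difference among the genes named (-7.86 ± 0.72, adjusted p = 0.00734). PENK, the precursor of the enkephalins, was at 2.27, 4.08 and 0 CPM against 190.2, 481 and 38 CPM (-7.02 ± 0.67, adjusted p = 0.00743). The cranial level was under 1 CPM for CCK and at most 4.08 CPM for PENK, and every caudal library was above it. HEPACAM, a cell adhesion molecule of glia, had 3, 3, and 0 counts in the cranial libraries and 34, 169, and 43 counts in the caudal libraries, a ratio of 42.8 (95% counting interval 19.4 to 118). Its cranial libraries were all at 3 counts or fewer. CDH19, a cadherin of Schwann cell precursors, was at 1.24, 2.21 and 0.094 CPM against 59.8, 16.7 and 15.9 CPM (-4.91 ± 0.87, adjusted p = 0.0253). SCN7A, a sodium channel gene of glia and other cells, was at 28.0, 7.08 and 5.74 CPM against 104, 34.0 and 64.4 CPM (-2.53 ± 0.44, adjusted p = 0.0244).

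The calls of CDH19 and SCN7A did not hold without every pair. CDH19 did not pass without the day 0 pair (adjusted p = 0.0575), and SCN7A did not pass without the 1 month pair (adjusted p = 0.165). Without the block CDH19, SCN7A, and PENK did not pass (adjusted p = 0.0686 to 0.158). The list summed to 311, 198 and 363 CPM in the cranial tumor and 504, 403 and 606 CPM in the caudal libraries.

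The remaining genes with the largest differences came from several functions. In the cranial direction, TKTL1, a transketolase-like enzyme of sugar metabolism, was at 1727, 435 and 618 CPM against 8.39, 8.34 and 8.27 CPM (6.52 ± 0.64, adjusted p = 0.00743). BCHE, the esterase butyrylcholinesterase, was at 3897, 475 and 366 CPM against 8.39, 6.27 and 9.16 CPM (6.74 ± 0.88, adjusted p = 0.0125). Both were highest in the cranial day 0 library, while the caudal values stayed within a narrow range. KRT20, a keratin of gut and urothelium, was at 308, 5.67 and 1.88 CPM against 0.529, 0.259 and 0 CPM (7.15 ± 1.08, adjusted p = 0.0168). PROKR2, a prokineticin receptor, was at 61.5, 6.33 and 2.45 CPM against 0.396, 0.043 and 0 CPM (7.24 ± 0.75, adjusted p = 0.00743). Their cranial levels after treatment were far below the cranial day 0 level, although still above the caudal values, and neither passed without the block (adjusted p = 0.101 and 0.0784). HPN, the membrane protease hepsin, was by contrast steady in the cranial tumor, at 16.9, 15.5 and 21.0 CPM against 0, 0.259 and 0.745 CPM (6.07 ± 0.94, adjusted p = 0.0186). TRIM6 was at 21.2, 7.50 and 12.6 CPM against 0.066, 0.086 and 0.521 CPM (6.08 ± 0.86, adjusted p = 0.0137). In the caudal direction, BEX5 was at 1.34, 2.25 and 3.11 CPM in the cranial tumor and 286, 46.7 and 219.8 CPM in the caudal tumor (-6.06 ± 0.73, adjusted p = 0.0109), and MSMP at 0.362, 0.375 and 0.094 CPM and 35.2, 41.4 and 4.25 CPM (-6.47 ± 0.66, adjusted p = 0.00743).

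A few genes were counted in one tumor and nearly absent from the other. HOTAIR, a long noncoding RNA of the HOXC cluster (chromosome 27, 45353215 to 45356732), had 173, 38, and 90 counts in the cranial libraries and 0, 1, and 1 counts in the caudal libraries, a ratio of 144 (95% counting interval 39.6 to 1200). SUSD4, a complement-regulating membrane protein, had 315 counts over the cranial libraries and 1 over the caudal libraries, a ratio of 302 (53.8 to 12000). SLC5A9, a sugar transporter, had 535 counts against 2, a ratio of 256 (70.6 to 2120), and it did not pass without the block (adjusted p = 0.0554). These intervals cover counting error only. With at most 3 counts in every library of one tumor and at least 30 in every library of the other, 3 genes were found in each direction, HOTAIR and HEPACAM being the only ones with a full gene symbol.

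**Figure D2:**
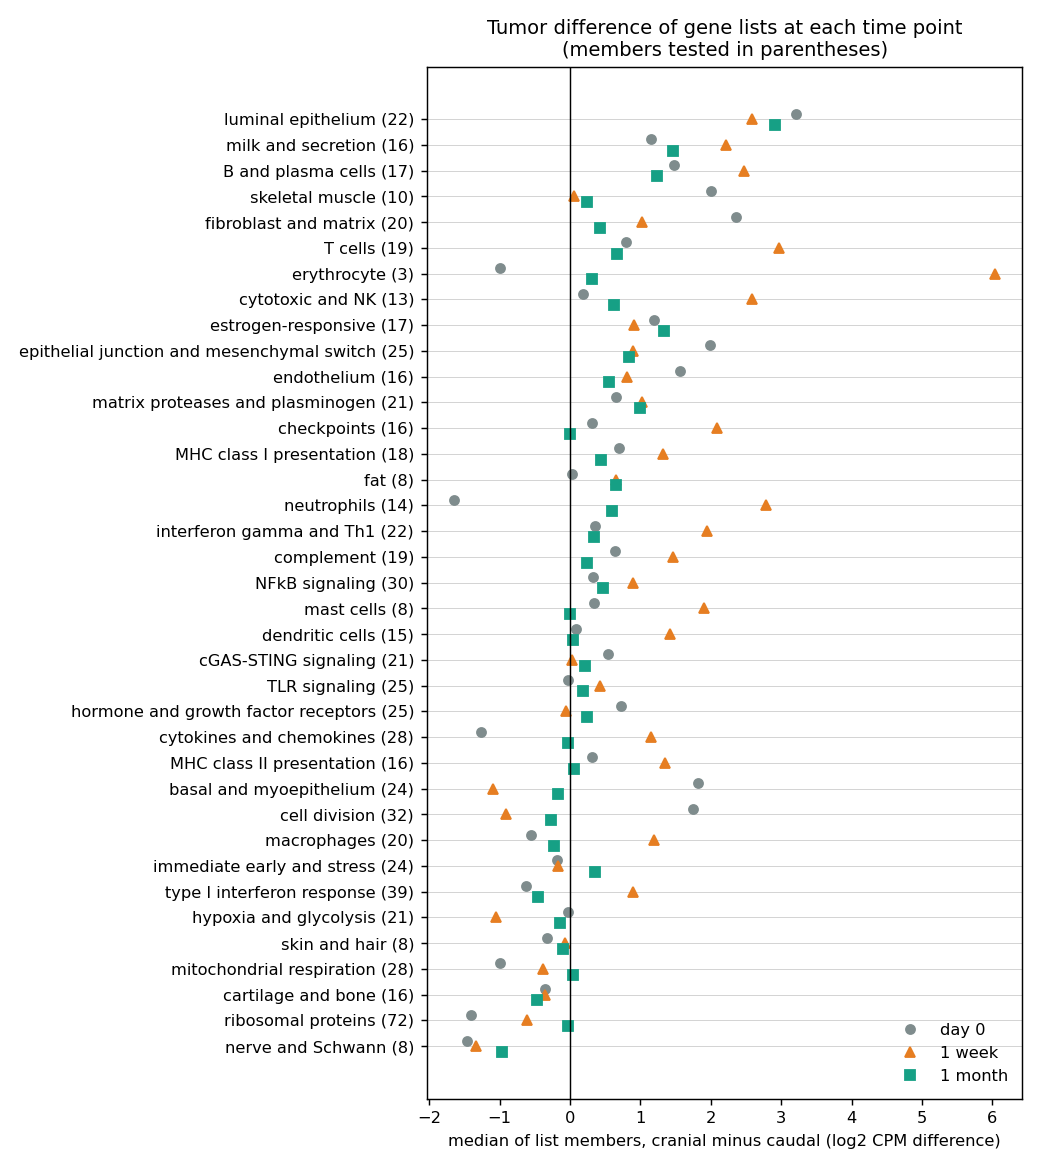
Median difference of the tested members of 37 gene lists, cranial minus caudal in log2 CPM, at day 0, 1 week, and 1 month, with the number of members tested in parentheses and the lists ordered by the median log2 fold change of the fit. Luminal epithelium stays between 2.59 and 3.21 at all time points, whereas neutrophils, basal and myoepithelium, and cell division change sign between them.

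Few immune genes passed the test of a constant difference. None of 19 T cell, 13 cytotoxic, 17 B and plasma cell, 20 macrophage, 14 neutrophil, 15 dendritic cell, and 8 mast cell markers passed in edgeR, beside 4.83% of all genes (4524 of 18418 at an unadjusted p under 0.05). Other fits called some of these markers, DESeq2 and the unfiltered fit among them CD3E, CD2, ZAP70, MZB1, CD79A, CD79B, and CD68, and the fit with a density offset CD2, MZB1, and BLK. The median T cell marker differed by 0.79, 2.96 and 0.67 and the median B and plasma cell marker by 1.47, 2.47 and 1.23. Higher in the cranial tumor at all 3 time points were 14 of 19 T cell and 11 of 17 B and plasma cell markers, beside 24.9% of all genes. None of these 2 lists was lower at all 3, beside 26.7%. For macrophage and neutrophil markers it was 6 of 20 and 2 of 14 in the cranial direction and 1 each in the caudal direction. CD3E, a chain of the T cell receptor complex, was at 4.91, 45.5 and 14.0 CPM in the cranial tumor and 0.727, 4.84 and 5.96 CPM in the caudal tumor. The cranial value was the higher one at each time point, but the cranial day 0 and caudal 1 month values overlapped, and the difference of 2.40 ± 0.61 did not pass (adjusted p = 0.0643). MZB1, a plasma cell protein, was at 8.37, 10.5 and 45.3 CPM and 1.32, 1.73 and 14.8 CPM (2.27 ± 0.52, adjusted p = 0.0501). PTPRC, the pan-leukocyte marker CD45, was at 57.0, 316 and 163 CPM and 96.2, 116 and 182 CPM (0.16 ± 0.50, adjusted p = 0.854).

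Of the innate and interferon lists, single members passed. IRF1, an interferon-induced transcription factor, was at 40.8, 144 and 53.8 CPM in the cranial tumor and 10.1, 35.5 and 26.6 CPM in the caudal tumor, a log2 fold change of 1.69 ± 0.38 (adjusted p = 0.0471). ZBP1, a sensor of nucleic acids, was at 14.3, 149 and 7.44 CPM against 3.37, 20.7 and 0.447 CPM (2.89 ± 0.49, adjusted p = 0.022). The cranial ZBP1 level was above the caudal level in each pair while the ranges overlapped, since both tumors had their highest value at 1 week. IFI30, a thiol reductase of antigen processing, was at 59.5, 141 and 56.5 CPM against 16.5, 45.7 and 15.9 CPM (1.76 ± 0.33, adjusted p = 0.0285). These 3 calls did not hold without the 1 month pair (adjusted p = 0.123 for IRF1, 0.0639 for ZBP1, and 0.187 for IFI30). IRF1 also did not pass without the day 0 pair (adjusted p = 0.0531), nor IFI30 with an offset for gene density, and without the block none of the 3 passed (adjusted p = 0.192 to 0.379). STING1, the target of the cyclic dinucleotide, was at 19.6, 55.1 and 16.8 CPM and 14.1, 42.8 and 20.4 CPM, nearly alike (0.19 ± 0.39, adjusted p = 0.784). CGAS, the enzyme upstream of STING, was at 3.88, 46.6 and 15.8 CPM and 12.7, 19.9 and 22 CPM (-0.32 ± 0.64, adjusted p = 0.775). Of 21 tested members of that pathway 0 passed, beside 4.83% of all genes, a share too small for so few members to differ from it clearly.

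IL33, an alarmin cytokine of barrier cells, was the 1 of 28 cytokines and chemokines that passed, beside 2.33% of all genes in the caudal direction, at 23.4, 81.6 and 32.1 CPM in the cranial tumor and 351, 357 and 287 CPM in the caudal tumor (-3.07 ± 0.49, adjusted p = 0.019). VTCN1, an inhibitory ligand of the B7 family made by epithelium, was the 1 of 16 checkpoint genes, beside 2.5% in the cranial direction, at 117, 69.6 and 72.0 CPM against 4.96, 7.30 and 5.07 CPM (3.87 ± 0.43, adjusted p = 0.00857). The tumors did not overlap in either gene. Complement genes split, 4 of 19 tested being higher in the cranial tumor and 2 in the caudal tumor, beside the same 2.5% and 2.33%. CFD, the protease complement factor D, was at 198, 460.4 and 137 CPM against 19.5, 50.4 and 29.8 CPM (2.91 ± 0.42, adjusted p = 0.015). C7, a component of the membrane attack complex, was at 63.0, 107 and 46.2 CPM against 8.13, 8.17 and 12.9 CPM (2.84 ± 0.47, adjusted p = 0.0211). CD55, which shields cells from complement, was at 87.1, 70.4 and 44.1 CPM against 17.0, 3.59 and 8.34 CPM (2.99 ± 0.51, adjusted p = 0.023). In these 3 genes the cranial libraries were above the caudal ones. CFB, the remaining cranial member, was at 32.8, 262 and 53.7 CPM against 8.06, 19.9 and 9.09 CPM (2.77 ± 0.44, adjusted p = 0.0195) and did not pass with an offset for gene density. Without the block IL33, CFD, CD55, and CFB did not pass (adjusted p = 0.0554 to 0.105). Of the caudal members CD59, another complement inhibitor of the cell surface, named after its values were seen, was at 180.02, 144 and 706 CPM against 4419, 838 and 3544 CPM (-3.13 ± 0.65, adjusted p = 0.0377).

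Among the remaining lists, single genes passed. LPL, the lipoprotein lipase of fat and other cells, was at 149.8, 55.5 and 60.3 CPM in the cranial tumor and 1131, 626 and 969.7 CPM in the caudal tumor (-3.47 ± 0.48, adjusted p = 0.0132), while ADIPOQ, a hormone made by fat cells, was at 0.517, 2.88 and 17.2 CPM and 0.198, 0.302 and 0 CPM and did not pass (adjusted p = 0.12). BNIP3, a hypoxia-induced mitophagy gene, was at 27, 41.3 and 64.5 CPM against 267, 373 and 199 CPM (-2.71 ± 0.48, adjusted p = 0.0253). LPL and BNIP3 were each higher in every caudal library. TNFAIP2, a gene induced by TNF, was at 64.9, 66.0 and 16.7 CPM against 3.37, 16.8 and 2.90 CPM (2.89 ± 0.56, adjusted p = 0.0306). PLAT, the tissue plasminogen activator, was at 22.8, 109.9 and 18.2 CPM against 5.75, 22.3 and 6.85 CPM (1.90 ± 0.40, adjusted p = 0.0391), and it did not pass without the 1 week pair (adjusted p = 0.095) or the 1 month pair (0.114), and without the block TNFAIP2 and PLAT did not pass (0.164 and 0.258). For TNFAIP2 and PLAT the ranges of the tumors overlapped although the cranial library was the higher one of each pair. No member of the cell division, endothelium, skeletal muscle, skin and hair, or erythrocyte lists passed, beside 4.83% of all genes.

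**Figure D3:**
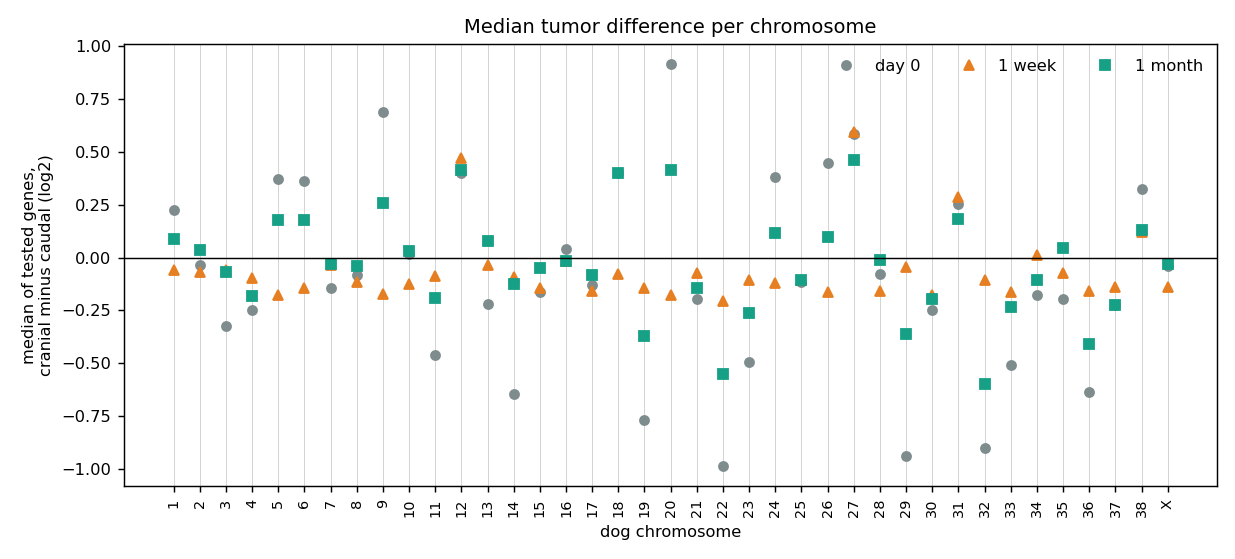
Median difference of the tested genes of each dog chromosome, cranial minus caudal in log2 CPM, at day 0, 1 week, and 1 month, for chromosomes with at least 50 tested genes. Chromosomes 12 and 27 lie between 0.40 and 0.59 at all 3 time points.

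Differences were also regional. The median of the 555 tested genes of chromosome 12 was 0.40, 0.47, and 0.41 higher in the cranial tumor at day 0, 1 week, and 1 month, and that of the 461 tested genes of chromosome 27 was 0.58, 0.59, and 0.46 higher. Of 39 chromosomes these were the only ones whose median stayed more than 0.15 from the median of all genes in one direction at each time point both with and without an offset for gene density, a limit chosen after the values were seen. Chromosomes 22 and 31 stayed past this limit only with the offset. Without it their medians were -0.986, -0.206, and -0.549 for chromosome 22 and 0.254, 0.286, and 0.181 for chromosome 31. The medians of all genes were 0.029, -0.08, and 0.032, so chromosome 31 fell just short at 1 month. On chromosome 12, 40% of tested genes were higher in the cranial tumor at all 3 time points, and on chromosome 27 46.2%, beside 24.9% of all genes. Divided into 4 blocks of like gene number along its length, chromosome 27 had block medians of 0.187 to 0.868 at 1 week and 0.213 to 0.819 at 1 month. At day 0 block 2 of chromosome 27 was at -0.033 and block 3 of chromosome 12 at -0.159, and the other blocks of these chromosomes were positive.

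Relative to the libraries of the other dogs, the chromosome 12 median was -0.374, -0.414, and -0.31 in the caudal tumor and 0.059, 0.011, and 0.129 in the cranial tumor. For chromosome 27 it was -0.344, -0.449, and -0.16 in the caudal tumor and 0.162, 0.345, and 0.244 in the cranial tumor. On chromosome 27 single libraries of the other dogs ranged from -0.333 to 0.284, a range that held the caudal 1 month, cranial day 0, and cranial 1 month libraries. DNA copy number was not measured.

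Several genes described above lie on chromosome 27, among them KRT18, LALBA, AQP5, and HOTAIR. Without the 5 members of the luminal and milk lists, the 456 remaining genes of chromosome 27 had medians of 0.57, 0.57, and 0.43. Conversely, the 17 luminal genes outside chromosomes 12 and 27 had medians of 2.64, 2.66, and 2.75, and 11 of them passed. The regional and the luminal difference were each present without the genes they share.

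**Figure D4:**
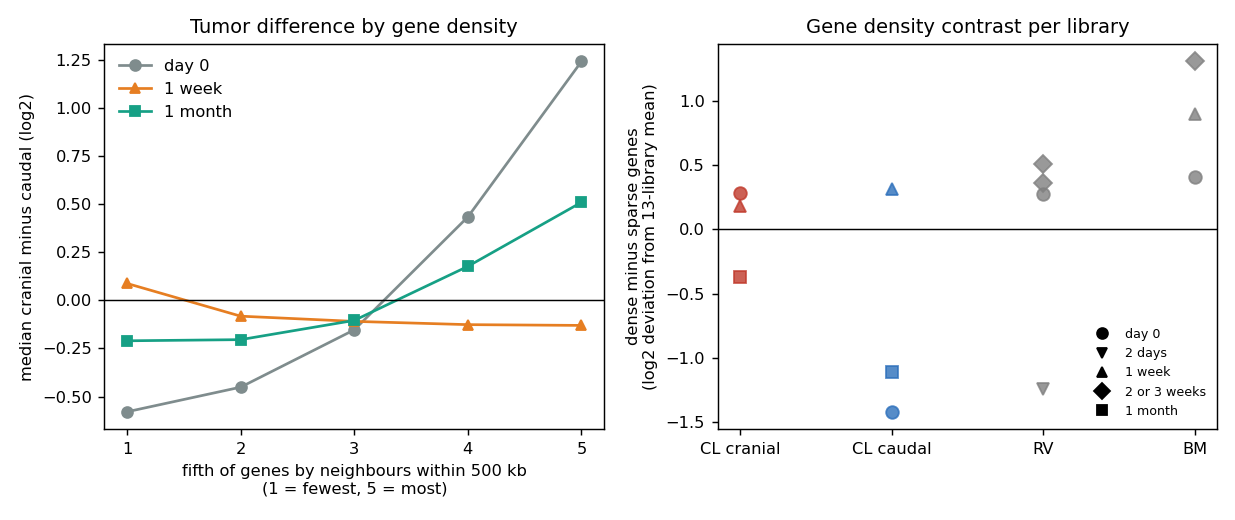
Left, the median difference between the tumors (cranial minus caudal, log2) in 5 groups of genes of near-equal size (fewest 3523, most 3901) ordered by the number of annotated genes within 500 kb, at each time point. Right, the gene density contrast of each of the 13 libraries, which is the median deviation of genes in dense regions minus that in sparse regions, with the caudal day 0 and 1 month libraries at -1.42 and -1.11 and the RV 2-day library at -1.25.

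The libraries also differed in how genes of crowded and of sparse regions were counted, and the tumor differences varied with it. Genes were ordered by the number of annotated genes within 500 kb. The contrast of dense over sparse regions, relative to the mean of 13 libraries, was -1.42, 0.315, and -1.11 in the caudal tumor and 0.283, 0.185, and -0.367 in the cranial tumor. The median tumor difference at day 0 went from -0.579 in the sparsest of 5 groups of genes to 1.24 in the densest. At 1 week it went from 0.088 to -0.13 and at 1 month from -0.21 to 0.51. Among genes that passed, the sparsest group held 103 cranial and 198 caudal genes, and the densest group 109 cranial and 29 caudal genes. With a per-library offset for gene density 1251 genes passed, 646 of them higher in the cranial tumor, and 864 were among the 890. The part of the density contrast in single genes beyond this offset was not tested.

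The second question was how the same treatment was followed in the 2 tumors. With 1 library per tumor and time point a change from day 0 has no replicate check, and a change of at least 2-fold in log2 CPM is counted below as a description. At 1 week, 13.6% of genes were at least 2-fold higher and 7.76% at least 2-fold lower in the cranial tumor, against 27.7% and 20.9% in the caudal tumor. At 1 month the order was the other way round, with 21.2% and 25.8% in the cranial tumor and 7.15% and 7.01% in the caudal tumor. At 1 week 865 genes (4.7%) were at least 2-fold higher in both tumors, 313 (1.7%) lower in both, and 830 (4.51%) moved by that amount in opposite directions. The SD of the change over genes was 0.99 and 1.48 at 1 week and 1.45 and 0.76 at 1 month for the cranial and caudal tumor. The large change of each tumor coincided with the step between a library of high and a library of low ribosomal share, and the small change with a step between like libraries. Tumor biology and library make-up cannot be told apart in these counts. Over all genes, the change at 1 week in the cranial tumor had a correlation of r = 0.049 with that in the caudal tumor, and at 1 month of r = 0.251. From 1 week to 1 month, a step from a library of low to one of high ribosomal share in both tumors and a contrast added after the data were seen, it was r = 0.697.

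**Figure D5:**
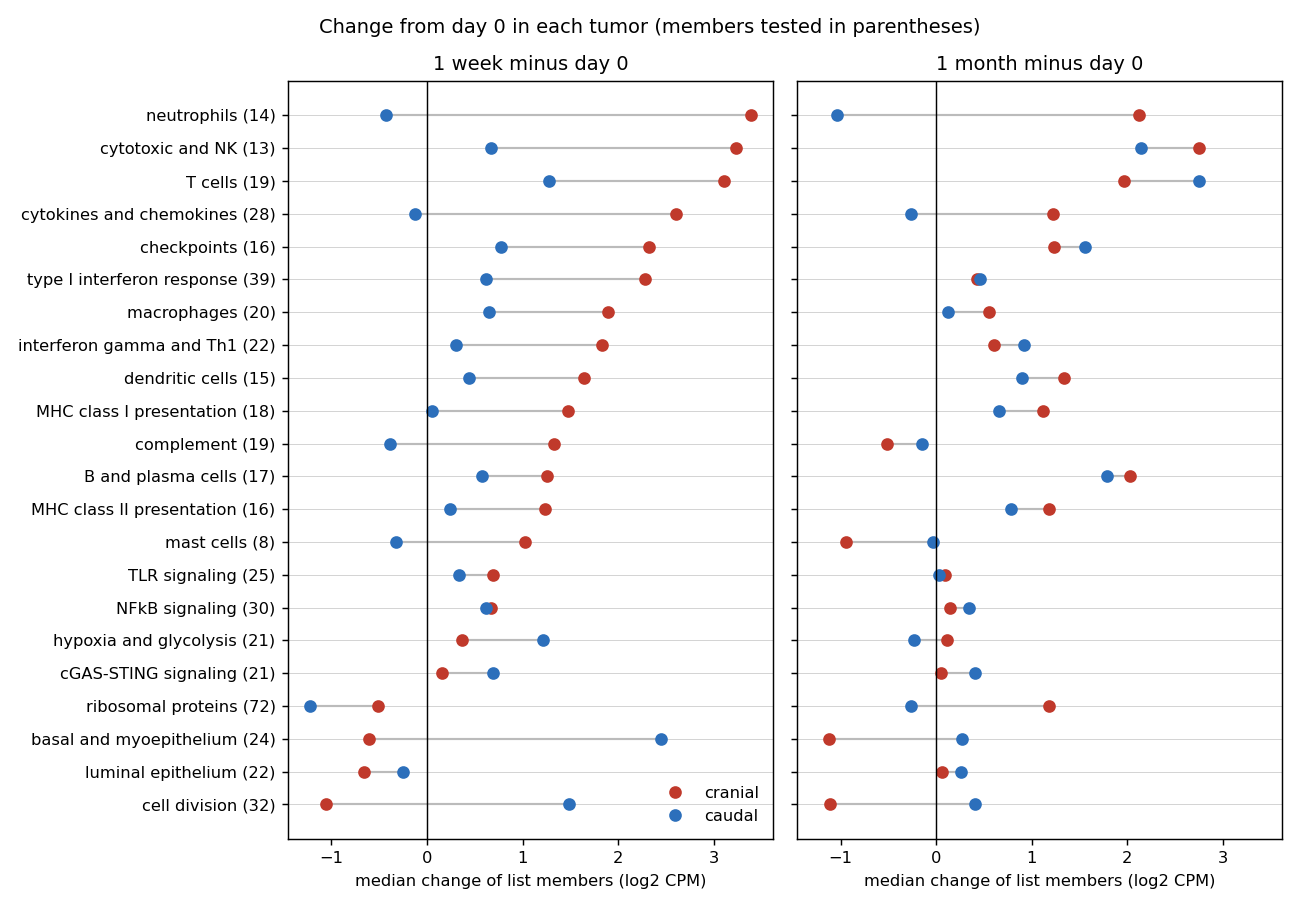
Median change from day 0 of the tested members of 22 gene lists, in log2 CPM, at 1 week (left) and 1 month (right), with the cranial tumor in red and the caudal tumor in blue. At 1 week the T cell, cytotoxic, macrophage, neutrophil, and type I interferon medians lie further to the right in the cranial tumor, neutrophils at 3.40 against -0.43, and the cell division and basal lists lie on opposite sides of 0.

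T cell and cytotoxic lists had larger median changes in the cranial tumor at 1 week. All 19 tested T cell markers were at least 2-fold higher there, beside 13.6% of all genes, with a median change of 3.11, against 12 of 19 and a median of 1.28 in the caudal tumor, beside 27.7% of all genes. The medians over all genes were -0.071 and -0.01. All 13 cytotoxic markers were at least 2-fold higher in the cranial tumor (median 3.24) and 6 of 13 in the caudal tumor, beside the same shares of all genes (median 0.67). GZMB, the granule protease granzyme B, was at 1.81, 29.5 and 12.8 CPM in the cranial tumor and 1.25, 4.80 and 4.77 CPM in the caudal tumor. At 1 month the lists were closer, with T cell medians of 1.97 and 2.75 and cytotoxic medians of 2.75 and 2.15. CCL5, a chemokine that attracts T cells, was at 5.94, 148 and 119 CPM and 6.28, 30.7 and 63.4 CPM, above its day 0 level in both tumors at both later times.

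The type I interferon response showed the same order at 1 week. In the cranial tumor 38 of 39 tested members were at least 2-fold higher, beside 13.6% of all genes, with a median change of 2.28, and in the caudal tumor 15 of 39, beside 27.7%, with a median of 0.62. By 1 month the medians were 0.43 and 0.47. Members differed in whether the tumors parted. MX1, an antiviral GTPase, was at 64.6, 522 and 82.5 CPM in the cranial tumor and 45.2, 355 and 83.6 CPM in the caudal tumor, so that both had their peak at 1 week, by 3.01 and 2.97 on the log2 scale. OASL, another antiviral gene, was at 18.5, 193 and 18.3 CPM and 7.20, 77.2 and 14.8 CPM, again with a peak at 1 week in both. RSAD2, which encodes viperin, was at 12.2, 272 and 87.6 CPM and 104, 90.5 and 136 CPM, and ISG15, a ubiquitin-like protein, at 46.3, 349 and 559 CPM and 466, 213 and 959 CPM. In both, the lowest of the 6 values was that of the cranial day 0 library, and the caudal 1 week level lay below the caudal day 0 level.

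STING1 was above its day 0 level at 1 week in both tumors, by 1.49 in the cranial tumor and 1.60 in the caudal tumor on the log2 scale, and its changes at 1 month were -0.22 and 0.53. The 21 tested cGAS-STING members had median changes of 0.16 and 0.69 at 1 week, with 6 and 9 at least 2-fold higher, beside 13.6% and 27.7% of all genes. For 25 Toll-like receptor pathway genes the medians were 0.69 and 0.34, and for 30 NFκB pathway genes 0.67 and 0.62. With the density offset the caudal NFκB median was 0.011. TGM2, an enzyme that crosslinks proteins, was at 3.72, 78.4 and 2.17 CPM in the cranial tumor and 1.39, 11.5 and 1.49 CPM in the caudal tumor, with a peak at 1 week in both.

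Macrophage markers were at least 2-fold higher at 1 week for all 20 members in the cranial tumor (median 1.89) and for 9 of 20 in the caudal tumor, beside 13.6% and 27.7% of all genes (median 0.65). MARCO, a scavenger receptor, was at 0.723, 24.7 and 0.471 CPM in the cranial tumor and 0.264, 5.75 and 0.074 CPM in the caudal tumor, peaking at 1 week in both. CD14, a coreceptor for bacterial lipopolysaccharide, was at 19.8, 117 and 29.1 CPM and 14.4, 38.1 and 15.8 CPM, again with both peaks at 1 week. The list summed to 1650.0, 7559 and 2453 CPM in the cranial tumor and 2359, 12231 and 3494 CPM in the caudal libraries. B and plasma cell markers followed a later course, with medians of 1.26 and 0.57 at 1 week and 2.03 and 1.78 at 1 month. MZB1, given above, was highest at 1 month in both tumors.

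The neutrophil list had medians of opposite sign in the tumors at 1 week, 3.40 in the cranial tumor and -0.43 in the caudal tumor. At 1 week 13 of 14 tested members were at least 2-fold higher in the cranial tumor, beside 13.6% of all genes. In the caudal tumor 3 were higher and 6 lower by that amount, beside 27.7% and 20.9% of all genes there. CSF3R, the receptor for granulocyte colony-stimulating factor, was at 2.79, 92.1 and 3.77 CPM in the cranial tumor and 3.24, 4.15 and 0.819 CPM in the caudal tumor. S100A12, a calcium-binding protein of granulocytes, was at 7.08, 79.7 and 26.2 CPM and 78.2, 8.73 and 20.0 CPM. S100A8, named after its values were seen, was at 14.3, 144 and 149 CPM and 1705, 47.7 and 696 CPM, highest in the caudal day 0 library and lowest in the cranial day 0 library. The list summed to 169, 865 and 445 CPM in the cranial tumor and 2525, 188 and 1114 CPM in the caudal libraries. S100A8 alone made up most of the caudal day 0 and 1 month sums. Erythrocyte genes, a sign of blood in a biopsy, moved with the cranial 1 week library, their summed level being 1.19, 60.3 and 9.22 CPM in the cranial tumor and 2.31, 0.78 and 8.49 CPM in the caudal libraries over 3 tested members. Their part in the immune changes was not tested.

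Of 28 cytokines and chemokines, 24 were at least 2-fold higher at 1 week in the cranial tumor, beside 13.6% of all genes (median 2.60). In the caudal tumor 4 were higher and 8 lower, beside 27.7% and 20.9% of all genes (median -0.13). CXCL10, an interferon-induced chemokine, was at 4.65, 105 and 14.2 CPM in the cranial tumor and 34.4, 14.3 and 51.3 CPM in the caudal tumor. CCL19, a chemokine of lymphoid tissue, was at 1.91, 65.5 and 10.8 CPM and 12.5, 5.01 and 16.3 CPM. In both, the cranial 1 week library was the highest of all 6 and the caudal 1 week library lay below the caudal day 0 library. IDO1, an immune-suppressing enzyme induced by interferon, was at 1.81, 56.8 and 29.8 CPM and 6.74, 4.24 and 34.3 CPM, above its day 0 level at 1 month in both tumors and at 1 week only in the cranial tumor.

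Antigen presentation, interferon gamma, and checkpoint genes had larger median changes in the cranial tumor at 1 week, by 1.47 against 0.054 for 18 MHC class I genes and 1.24 against 0.24 for 16 class II genes (caudal values -0.29 and -0.71 with the density offset), 1.83 against 0.30 for 22 interferon gamma genes, and 2.32 against 0.77 for 16 checkpoint genes. At least 2-fold higher were 11 and 7, 10 and 4, 15 and 8, and 12 and 7 of these members in the cranial and the caudal tumor, beside 13.6% and 27.7% of all genes. DLA88, a classical MHC class I gene of the dog that shares sequence with its paralogs, was at 517, 1929.6 and 1362 CPM in the cranial tumor and 262, 595 and 652 CPM in the caudal tumor. NLRC5, a transactivator of MHC class I genes, was at 9.25, 91.6 and 19.3 CPM and 4.43, 27.6 and 14.9 CPM. NLRC5 was highest at 1 week in both tumors, and DLA88 in the cranial tumor. PDCD1LG2, a ligand of the receptor PD-1, was at 4.60, 66.3 and 29.5 CPM and 13.7, 13.9 and 29.5 CPM, and TIGIT, an inhibitory receptor of T cells, at 0.103, 5.88 and 3.20 CPM and 0.264, 0.519 and 4.39 CPM. In the caudal tumor both were nearly at their day 0 level at 1 week and above it at 1 month.

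Vessel and protease genes had medians above 1 in both tumors at 1 week. The 16 tested endothelial markers had medians of 1.21 and 1.57, with 10 at least 2-fold higher in each tumor, beside 13.6% and 27.7% of all genes. PECAM1, an adhesion molecule of vessel walls, was at 48.5, 148 and 34.6 CPM in the cranial tumor and 16.2, 46.6 and 19.1 CPM in the caudal tumor, and VWF, which encodes von Willebrand factor, at 23.4, 141 and 11.3 CPM and 7.80, 26.4 and 6.70 CPM. Each was highest at 1 week in both tumors. The 21 matrix protease and plasminogen genes had medians of 1.33 and 1.77, with 11 and 14 at least 2-fold higher, beside the same shares of all genes. MMP19, a matrix metalloprotease, was at 25.2, 63.7 and 4.71 CPM and 3.37, 15.1 and 2.46 CPM. Of 21 hypoxia and glycolysis genes, 4 were at least 2-fold higher in the cranial tumor at 1 week and 12 in the caudal tumor, beside 13.6% and 27.7% of all genes, with medians of 0.36 and 1.22. Of 19 complement genes, 14 and 8 were at least 2-fold higher, beside the same shares of all genes, with medians of 1.33 and -0.39. SERPING1, the inhibitor of complement C1, was at 142, 464 and 26.2 CPM and 29.1, 185 and 18.0 CPM, highest at 1 week in both tumors.

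The cell division and basal lists had median changes of opposite sign in the tumors at 1 week. None of 32 tested cell division genes was at least 2-fold higher in the cranial tumor at either time, beside 13.6% of all genes at 1 week and 21.2% at 1 month. At least 2-fold lower there were 17 at 1 week and 19 at 1 month, beside 7.76% and 25.8% of all genes, with medians of -1.05 and -1.11. In the caudal tumor 22 were at least 2-fold higher at 1 week, beside 27.7% of all genes (median 1.49), and none at 1 month, beside 7.15% (median 0.40). MKI67, the proliferation marker Ki-67, was at 58.3, 30.5 and 2.64 CPM in the cranial tumor and 2.84, 23.3 and 4.25 CPM in the caudal tumor. MCM5, a subunit of the replicative helicase, was at 22.4, 11.4 and 10.8 CPM and 1.39, 19.6 and 2.46 CPM. CDK1, the kinase that drives mitosis, was at 36.1, 12 and 37.8 CPM and 43.9, 33.7 and 76.4 CPM and did not share the caudal 1 week peak. For MKI67 and MCM5 each library of low ribosomal share was above each of high share, and for CDK1 each was below. The part of library make-up in these levels was not tested. Of 24 basal and myoepithelial genes, 18 were at least 2-fold higher in the caudal tumor at 1 week, beside 27.7% of all genes (median 2.45). In the cranial tumor 1 was higher and 5 lower by that amount, beside 13.6% and 7.76% of all genes (median -0.60). KRT5 and CNN1, with the levels given above, both had their highest value in the caudal 1 week library. Both were also higher in each library of low ribosomal share than in each of high share. Skeletal muscle genes moved with them, 7 of 10 being at least 2-fold higher in the caudal tumor at 1 week, beside 27.7% of all genes. Their sum was 26.0, 219.7 and 31.3 CPM in the caudal libraries. Their part in the basal changes was not tested.

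The test of a different response, with the 1 week and 1 month libraries as 2 posttreatment samples of each tumor, found 0 genes (0.0%) at an adjusted p under 0.05 in edgeR. At an unadjusted p under 0.05 there were 162 genes, 0.88% of those tested, 99 of them with the larger change in the cranial tumor and 63 in the caudal tumor. DESeq2 called 4 genes, and edgeR without the cranial 1 week library called 31. The number of genes under the unadjusted limit depended on the model. It was many times larger with time point as a block, where no gene passed after adjustment either. A value that misses the threshold here does not show that the tumors responded alike, since 2 residual degrees of freedom remained.

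The genes with the smallest p-values in this test, none of which passed, hold several of the markers above. CAMP, the antimicrobial peptide cathelicidin of neutrophils, was at 0.207, 1.92 and 11.2 CPM in the cranial tumor and 3.57, 0.043 and 0.074 CPM in the caudal tumor, a difference between the changes of 10.75 ± 2.36 (adjusted p = 0.987). It was called by DESeq2 (adjusted p = 0.0139) and by edgeR without the cranial 1 week library (adjusted p = 0.0208). Its cranial values were above day 0 and its caudal values below day 0 at both times, the later caudal libraries holding 1 count each. MMP12, the macrophage metalloelastase, was at 5.12, 204 and 99.8 CPM and 64.7, 82.8 and 77.8 CPM (4.58 ± 1.16, adjusted p = 0.987). HS3ST2, an enzyme that sulfates heparan, was at 0.62, 3.04 and 4.71 CPM and 81.6, 5.62 and 14.4 CPM (5.66 ± 1.47). FABP4, a fatty acid carrier of fat cells and macrophages, was at 10.4, 31.8 and 48.8 CPM and 37.0, 8.69 and 8.71 CPM (4.04 ± 1.14). For HS3ST2 and FABP4 the tumors moved toward or past each other from opposite starting levels.

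On the other side, ACP5, the tartrate-resistant acid phosphatase of osteoclasts and macrophages, was at 206, 26.4 and 15.9 CPM in the cranial tumor and 4.23, 6.09 and 6.63 CPM in the caudal tumor (-3.87 ± 1.05, adjusted p = 0.987). WNT4, a ligand that acts downstream of progesterone in the mammary gland, was at 166, 5.12 and 1.22 CPM and 0.529, 0.519 and 0.298 CPM (-5.35 ± 1.61). Both had their highest level in the cranial day 0 library. TFCP2L1, a transcription factor of epithelial cells, was at 195, 25.8 and 28.7 CPM and 1.65, 7.82 and 2.16 CPM (-4.44 ± 1.36). QRICH2 was at 74.8, 1.33 and 0.847 CPM and 0.462, 0.821 and 0.298 CPM (-6.38 ± 1.58). In these 4 genes the cranial day 0 library was far above the other 5 libraries, so that the difference between the changes depends on that library. IL2RA, the alpha chain of the interleukin-2 receptor, was at 35.2, 10.2 and 3.67 CPM and 0.198, 1.47 and 1.19 CPM (-5.04 ± 1.61), with cranial values below and caudal values above day 0.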

How the data were processed

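Total RNA from tumor biopsies was sequenced as strand-specific libraries. Alignment was by the authors, in Strand NGS and against CanFam4.0. The deposited values are raw read counts by gene symbol, not normalized. The version of the aligner, the rule for counting, the gene annotation, and the handling of reads that match several genes are not given in the sources used here, so genes of near-identical families may share reads. Depth in the 6 libraries of dog CL was 11622444 to 20815295 counts.

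The members of the comparison and the gene lists were chosen with earlier results of these data known. Of 43427 symbols, 18418 passed edgeR's filter by expression (minimum count 10) over the 6 libraries. Levels were scaled by trimmed mean of M values. The constant difference was fitted in edgeR 4.0.16 (R 4.3.3) with time point and tumor as terms and tested with the robust quasi-likelihood F test, with 2 residual degrees of freedom. The difference in response was the interaction of tumor and phase (before or after treatment), also with 2 residual degrees of freedom. In both fits the value after ± is the absolute log2 fold change divided by the square root of its F statistic. It is an approximate standard error and not the spread of the time points. Adjusted p-values are Benjamini-Hochberg values over all tested genes. Changes of single libraries were taken as log2 CPM with a prior count of 2 and counted from 2-fold. Gene density was the number of RefSeq genes of UU_Cfam_GSD_1.0 (CanFam4) within 500 kb, and 98.04% of symbols matched that annotation. Coordinates are from it. The fits were run on simulated counts. The spread simulated was below that of the response fit, so these runs do not show how the response test performs here.

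The genes named were the 10 in each direction with the largest passing fold change, at least 5 CPM in the higher tumor, and a symbol not starting with LOC, up to 4 members of each list with the smallest p, the 8 in each direction with the smallest p for the response, up to 3 members of each immune list with the largest change at 1 week, genes present in one tumor and at most at 3 counts in the other, and a fixed set of markers. Not all are described, and some genes that the rule names are not reported here. Exceptions are marked where they stand. Libraries of one tumor and time point share a host, and the deviations of same-time libraries of the 2 tumors from their tumor's mean correlated at -0.207 at day 0, 0.498 at 1 week, and 0.688 at 1 month. Libraries of different times correlated at 0.486 (cranial day 0, caudal 1 week) and 0.454 (cranial 1 month, caudal day 0). The other pairs of different times were at -0.731 to -0.37. Positive correlation was therefore not confined to libraries of the same time. No pair of libraries agreed within sampling noise. Alternatives were DESeq2 1.42.0 and its size factors, no filter, no block (for the response, a block), and offsets for gene density and length. Each time point or library was also left out, and all 13 libraries were fitted together.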

Additional observations from a re-analysis of the deposited data

Results flagged for a closer look

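In 5 gene lists the median change from day 0 had one sign at both time points in the cranial tumor and the opposite sign at both in the caudal tumor, or the reverse. The difference between the tumors was not tested, since each change rests on 1 library against 1. The mean of the 1 week and 1 month medians, cranial minus caudal on the log2 scale, was 3.50 for neutrophils and 2.11 for cytokines and chemokines. It was -2.22 for basal and myoepithelial genes, -2.03 for cell division, and -1.80 for skeletal muscle. The summed level of the neutrophil list at day 0 was 169 CPM in the cranial tumor and 2525 CPM in the caudal tumor. Most of the caudal sum came from 1 gene, S100A8. The median tested member differed by -1.65 at day 0, cranial minus caudal. CXCR2 and MMP8, too low to be tested, had 4 and 2 counts in the cranial day 0 library and 2 and 3 in the caudal one.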

How the results depend on the processing

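Each of the 890 genes kept its direction in each alternative for the constant difference. The alternatives reuse the libraries by which these genes were chosen, so this is no independent check. Counts that moved by over 1.5 times were 2897 without a filter (1681 cranial, 1216 caudal), 3121 with DESeq2 (1899 and 1222), 295 with no block for the pairing by time point (128 and 167), and 26 with all 13 libraries (6 and 20). Leaving out 1 pair gave 462 to 2702 genes, 284 to 1750 cranial and 178 to 952 caudal. The offsets for gene density alone or with length gave 1251 and 1331. The response test called 5 genes without a filter, 4 with DESeq2, and 0 to 31 with 1 posttreatment library left out. The share past 2-fold at 1 month in the caudal tumor was 14.2%, and 9.24% among genes with a mean of at least 50 counts. The cause of these shifts was not tested. Of 59 passing genes named by rule, 26 did not pass with no block, 50 with all 13 libraries, and 2 (IFI30 and CFB) with an offset for gene density; 3, 1, and 9 did not pass without the day 0, 1 week, or 1 month pair. Depth limits genes under 10 counts, and 2 residual degrees of freedom limit both tests.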
